A study of Mus musculus with 18 samples.

Results

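The genes described here are 33 listed mouse genes of glucose uptake, glycolysis, lactate and pyruvate handling, followed through reprogramming to induced pluripotent stem cells (iPSC). A gene was read by the probe set of that gene alone with the highest mean over all 18 arrays, and 28 of the 33 were measured, among 17903 genes in all. Gpi1, Aldoa, Gapdh, Eno1 and Mpc2 had no such probe set here and were not analysed. Expression was measured on Affymetrix arrays, 1 per sample, and precision is limited by how few arrays there are.

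Partial clone and iPSC samples were compared with late reprogramming cultures, and Tcf3 knockout (ko) with wild-type (wt) cells. Tcf3 is now called Tcf7l1, and its protein binds DNA and can be bound by beta-catenin. The factors were Oct4, c-Myc and Klf4 (OCK) or Oct4, Klf4 and Sox2 (OSK). The iPSC samples were 2 OCK ko clones, 2 OSK ko clones and 1 OSK wt sample. A partial OCK iPSC clone, 1 clone labelled Tcf3 wt, was sampled on day 2 after siRNA A or siRNA B against Tcf3 (1 array each) or a control siRNA (1 array). OCK cultures, ko and wt, gave 1 array each on day 11, 15, 19, 22 and 26. The sources used here do not give the age, the strain or the deleted part of the gene.

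All levels below are log2 signals of 1 probe set, so they compare samples and never 2 genes. The lowest deposited value was 5.64 (log2 of 50) on every array, and a value there is only an upper limit. Of the 28 measured members, 24 were above this floor on all 18 arrays, and Slc2a3, Slc16a3, Eno2 and Pdk2 were at it on some. Tests used limma over all genes, with p-values adjusted by Benjamini-Hochberg and called under 0.05. No label says that the partial clone arrays or the days of a genotype are separate cultures, while the ko iPSC clones are numbered. The p-values measure only how far these arrays spread. That spread includes clones, days or genotypes in some groups, and part or all of it may be technical in others. Tcf7l1 itself was 8.10 to 9.48 in ko cultures and 9.06 to 9.90 in wt cultures, lower in ko on each day, and 8.80 and 8.77 with siRNAs A and B against 9.93 with control siRNA. All 8 listed pluripotency markers were above the floor on every iPSC array, with a mean log2 signal of 12.46 to 12.81, against 8.43 to 9.93 in late cultures (days 22 and 26) and 8.06 to 8.34 in the partial clone. The 8 measured fibroblast markers averaged 6.52 to 7.84 in iPSC, 9.04 to 9.45 in the partial clone and 12.41 to 13.04 in late cultures. Late cultures held RNA of both marker lists, and in such bulk samples fewer cells of a type and less RNA per cell cannot be told apart.

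Glycolysis splits glucose into pyruvate in the cytosol. Pyruvate is then either reduced to lactate and exported, or carried into mitochondria, where the pyruvate dehydrogenase complex turns it into acetyl-CoA and pyruvate dehydrogenase kinases (Pdk) hold that complex back. Several steps are run by isoforms from separate genes that differ in tissue and regulation, and pluripotent stem cells are known for a high glycolytic rate. Many of these genes are also known targets of the hypoxia-inducible factors, which bind core sequences such as ACGTG, and of Myc, which binds CACGTG.

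Because many members moved together over the culture days, the 250 bases before their RefSeq start sites (build GRCm38.p6) were searched for ACGTG on both strands. Of all 32851 such windows, 5444 (16.6%) held it. Among the windows of 32 members, 18 of 47 (38.3%) held it. For the 17 members that rose over the culture days, described next, 11 of 22 windows (50%, 10 genes) held it, and for measured members that did not rise 5 of 16 did (31.2%, 4 of 10 genes). CACGTG contains ACGTG on both strands, so the counts overlap. It stood in 6.0% of all windows, 13.6% of those of members that rose and 18.8% of those of measured members that did not. Windows of 6 members that rose were chosen among those that hold ACGTG and come from different steps, namely uptake (Slc2a1), the first kinase (Hk2), the first ATP-yielding step (Pgk1), lactate formation (Ldha) and export (Slc16a3), and a hypoxia-induced mitochondrial protein (Bnip3). They lie at chr4:119108495-119108744 (+ strand) for Slc2a1, chr6:82774455-82774704 (- strand) for Hk2, chrX:106186850-106187099 (+ strand) for Pgk1, chr7:46845554-46845803 (+ strand) for Ldha, chr11:120948817-120949066 (+ strand) for Slc16a3 and chr7:138909507-138909756 (- strand) for Bnip3. Each reads 5′ to 3′ toward the gene, and capitals mark ACGTG or its reverse complement.
Slc2a1: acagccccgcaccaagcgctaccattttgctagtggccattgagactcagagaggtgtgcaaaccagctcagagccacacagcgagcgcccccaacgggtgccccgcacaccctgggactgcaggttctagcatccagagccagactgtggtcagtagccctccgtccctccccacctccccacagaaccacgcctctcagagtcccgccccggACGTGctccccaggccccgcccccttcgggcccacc
Hk2: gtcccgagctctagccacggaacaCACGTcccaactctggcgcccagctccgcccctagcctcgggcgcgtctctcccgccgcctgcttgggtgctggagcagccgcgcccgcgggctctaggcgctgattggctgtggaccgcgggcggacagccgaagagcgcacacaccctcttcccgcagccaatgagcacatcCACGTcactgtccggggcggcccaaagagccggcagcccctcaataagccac
Pgk1: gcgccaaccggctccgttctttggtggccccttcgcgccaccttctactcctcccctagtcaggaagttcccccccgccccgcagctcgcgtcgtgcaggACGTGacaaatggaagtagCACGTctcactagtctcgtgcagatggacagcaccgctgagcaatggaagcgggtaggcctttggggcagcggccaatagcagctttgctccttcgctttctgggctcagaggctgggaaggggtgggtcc
Ldha: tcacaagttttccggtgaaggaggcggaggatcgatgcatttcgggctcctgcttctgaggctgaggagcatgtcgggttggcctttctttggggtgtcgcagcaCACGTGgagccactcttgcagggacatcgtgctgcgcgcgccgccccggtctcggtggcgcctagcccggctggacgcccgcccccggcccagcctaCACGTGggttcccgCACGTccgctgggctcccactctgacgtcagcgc
Slc16a3: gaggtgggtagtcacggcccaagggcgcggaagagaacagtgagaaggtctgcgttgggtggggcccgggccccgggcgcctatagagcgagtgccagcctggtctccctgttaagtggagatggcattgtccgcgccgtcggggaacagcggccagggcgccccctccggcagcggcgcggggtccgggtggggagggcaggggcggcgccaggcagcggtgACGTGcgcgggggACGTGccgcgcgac
Bnip3: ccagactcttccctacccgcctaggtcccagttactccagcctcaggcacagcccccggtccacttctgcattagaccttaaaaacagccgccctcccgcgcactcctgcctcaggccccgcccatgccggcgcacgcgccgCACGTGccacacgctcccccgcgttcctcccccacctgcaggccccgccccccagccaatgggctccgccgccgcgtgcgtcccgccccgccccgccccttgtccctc
No ACGTG stood in any window of 7 members that rose (Aldoc, Pfkl, Pfkp, Tpi1, Eno2, Ldhb and Pdk1), in the window of the second Ldha start site, or in that of Pfkfb4, which fell. Only ACGTG was searched, and GCGTG, another form of the core, was not. A window without ACGTG may therefore hold that other form. A match is a description of the letters and not evidence of binding.

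Most tested members rose over the culture days. Between days 11 and 26, 17 of 27 tested members rose, 1 fell and 9 did not pass, while 36.6% of all 13428 tested genes passed (18% rose and 18.7% fell). The median change was 0.0443 log2 per day over the members and -0.00109 over all genes tested. Slc2a3 was at the floor on all 10 culture arrays and was not tested. The straight line was fitted to 10 arrays taken as independent, although ko and wt arrays share each sampling day. All calls were lost when the first sampling day was left out. Without day 11, 0 members and 0 genes passed in limma, in a fit of fewer arrays over a shorter course. The slopes of the members that had risen stayed positive in it, some larger and some smaller. Slc2a1 was 0.197 with and without day 11, Hk2 0.130 with and 0.153 without it, and Bnip3 0.160 with and 0.139 without it. Pfkfb4 went from -0.042 to -0.024. Leaving out another day ended single calls: Pfkfb4 (adjusted p = 0.06, 0.062 and 0.0872 without day 15, 19 or 22), Pdhb (0.124, 0.0734 and 0.066 without the same days), Pkm (0.112, 0.0754 and 0.17 without day 15, 22 or 26), Pgam1 and Ldha (0.0502 and 0.0525 without day 15) and Eno2 (0.0671 without day 26). Without day 26, 2 members fell. The Pdhb call was also lost with the mean of its probe sets (a slope of 0.010, adjusted p = 0.261) and with median centring (0.0606), and the Pfkfb4 and Pkm calls with the plain limma prior (0.089 and 0.0654). A line through the 5 day means, in which a mean was treated as floored if either array was, called 7 members and 424 genes. When only means of 2 floored arrays were treated so, it called 5 members and 351 genes. Marker lists of cell types differed between the same days. The mean of the 8 pluripotency markers was 8.43 to 9.93 on late culture arrays (6 to 8 above the floor) and 6.38 to 7.12 on those of days 11 and 15 (3 to 5 above it), that of the 5 macrophage markers 6.51 to 7.22 on late arrays (3 above the floor) and 8.0 to 8.63 on early ones (all above it), and that of the 8 fibroblast markers 12.41 to 13.04 on late and 13.57 to 13.65 on early arrays. Their part in the slopes was not tested.

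**Figure D1:**
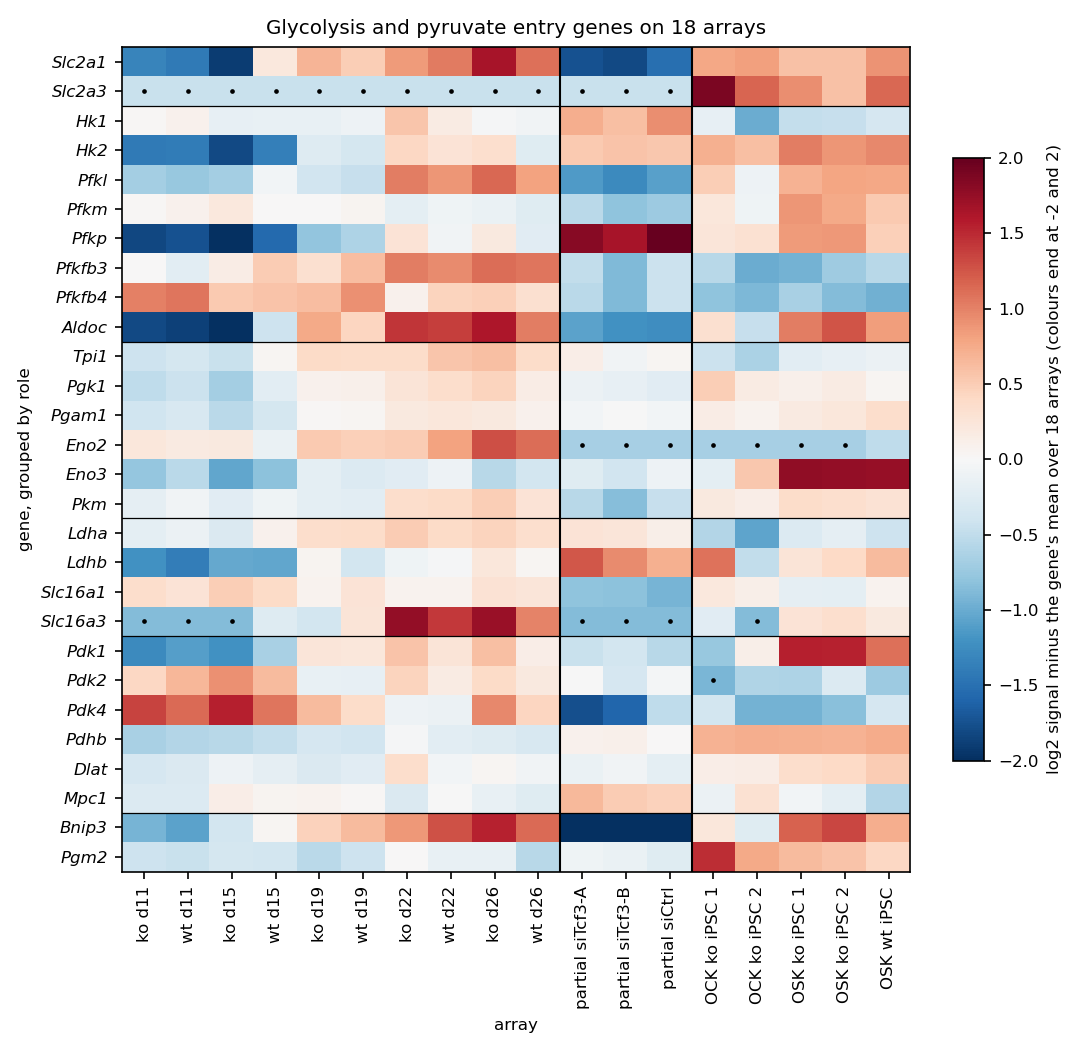
Log2 signal of the 28 measured members (rows, grouped by role) on the 18 arrays (columns), with colour showing the difference from the gene's own mean over all arrays. Most rows are low on culture days 11 and 15 and higher from day 19, and the partial clone is low in Slc2a1, Aldoc and Bnip3.

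For glucose uptake, Slc2a1 encodes GLUT1, the transporter that most dividing cells use. It read 9.85, 9.26, 11.84, 12.01 and 12.82 in ko cultures on days 11, 15, 19, 22 and 26, against 9.76, 11.37, 11.66, 12.21 and 12.27 in wt cultures. The late arrays were all above every day 11 and day 15 array, and the day 15 arrays of the genotypes lay far apart. Its slope was 0.20 ± 0.032 log2 per day (SE, 10 arrays; limma adjusted p = 0.00545), which is 2.96 over the course.

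Among the upper steps, Hk2 encodes the regulated hexokinase of growing cells. It read 9.61, 9.21, 10.76, 11.42 and 11.36 in ko cultures and 9.62, 9.65, 10.66, 11.29 and 10.77 in wt cultures, and rose by 0.13 ± 0.026 per day (adjusted p = 0.0091). Its sister gene Hk1, the housekeeping hexokinase, ranged only from 9.99 to 10.71 and had a slope of 0.0067 ± 0.014 that did not pass. The genes Pfkp, Pfkl and Pfkm of phosphofructokinase, whose enzyme commits sugar to glycolysis, differed. Pfkp (0.15 ± 0.023 per day) and Pfkl (0.12 ± 0.024) rose, and Pfkm did not pass (-0.019 ± 0.0081). Pfkl rose late: it read 8.57, 8.58, 8.86, 10.28 and 10.40 in ko cultures and 8.50, 9.19, 8.80, 10.13 and 10.06 in wt cultures, so that days 22 and 26 stood apart from all earlier days. Of the bifunctional enzymes that set fructose 2,6-bisphosphate, an activator of phosphofructokinase, Pfkfb3 rose by 0.082 ± 0.011 and Pfkfb4 fell by 0.042 ± 0.014 per day (adjusted p = 0.00407 and 0.0433). Aldoc, the aldolase best known from brain, had the steepest slope of the members at 0.24 ± 0.035 (adjusted p = 0.00455). It read 6.57, 6.38, 9.13, 9.80 and 9.99 in ko cultures and 6.51, 7.96, 8.80, 9.76 and 9.39 in wt cultures.

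In the lower steps, Tpi1 (triose phosphate isomerase, 0.065 ± 0.012 per day), Pgk1 (phosphoglycerate kinase, 0.062 ± 0.012), Pgam1 (phosphoglycerate mutase, 0.044 ± 0.011) and Pkm (pyruvate kinase, 0.040 ± 0.012) rose, with adjusted p between 0.00774 and 0.032. On days 11 and 15 their signals lay between 11.44 and 12.47. Eno2, the neuronal enolase, rose by 0.070 ± 0.014 (adjusted p = 0.00912), with 6.54, 6.51, 6.83, 6.82 and 7.60 in ko cultures and 6.50, 6.18, 6.79, 7.12 and 7.42 in wt cultures. Eno3, the muscle enolase, had a slope of 0.031 ± 0.016 that did not pass. The 8 listed neuron markers were higher on late arrays as well: their mean was 8.45 in ko and 8.30 in wt on day 22, and 7.23 in ko and 9.89 in wt on day 26, against 6.78 to 6.88 on days 11 and 15. Their part in the Eno2 and Aldoc slopes was not tested.

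Both lactate dehydrogenase genes rose, Ldhb (subunit of the heart-type enzyme) by 0.10 ± 0.014 per day (adjusted p = 0.00392) and Ldha (subunit of the muscle-type enzyme) by 0.044 ± 0.011 (0.0154). Of the monocarboxylate transporters, Slc16a3 (MCT4, a lactate exporter of glycolytic cells) read 5.64, 5.64, 6.15, 8.28 and 8.24 in ko cultures and 5.64, 6.25, 6.77, 7.93 and 7.50 in wt cultures. It was at the floor on 3 of the 4 arrays of days 11 and 15, where values are upper limits, and its fitted slope was 0.18 ± 0.030 (adjusted p = 0.00615). Slc16a1 (MCT1) stayed between 11.98 and 12.40 and did not pass.

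Among genes at the pyruvate branch, Pdk1 rose by 0.12 ± 0.020 per day (adjusted p = 0.00602), with 8.20, 8.27, 9.73, 10.06 and 10.08 in ko cultures and 8.39, 8.83, 9.72, 9.75 and 9.62 in wt cultures. Pdk2 (-0.027 ± 0.019) and Pdk4 (-0.067 ± 0.026) did not pass. Of the pyruvate dehydrogenase subunits, Pdhb rose by 0.028 ± 0.0090 (0.0383) and Dlat did not pass (0.023 ± 0.011). Mpc1, a subunit of the mitochondrial pyruvate carrier, had a slope of -0.0016 ± 0.012 and did not pass. Bnip3, a hypoxia-induced protein of mitophagy, had the smallest adjusted p of the members (0.00224) at 0.16 ± 0.015 per day, and read 9.81, 10.38, 11.20, 11.61 and 12.27 in ko cultures and 9.67, 10.78, 11.36, 12.01 and 11.87 in wt cultures. Each ko array was higher than the one before it, and so was each wt array but the last. Pgm2, a phosphoglucomutase, did not pass.

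**Figure D2:**
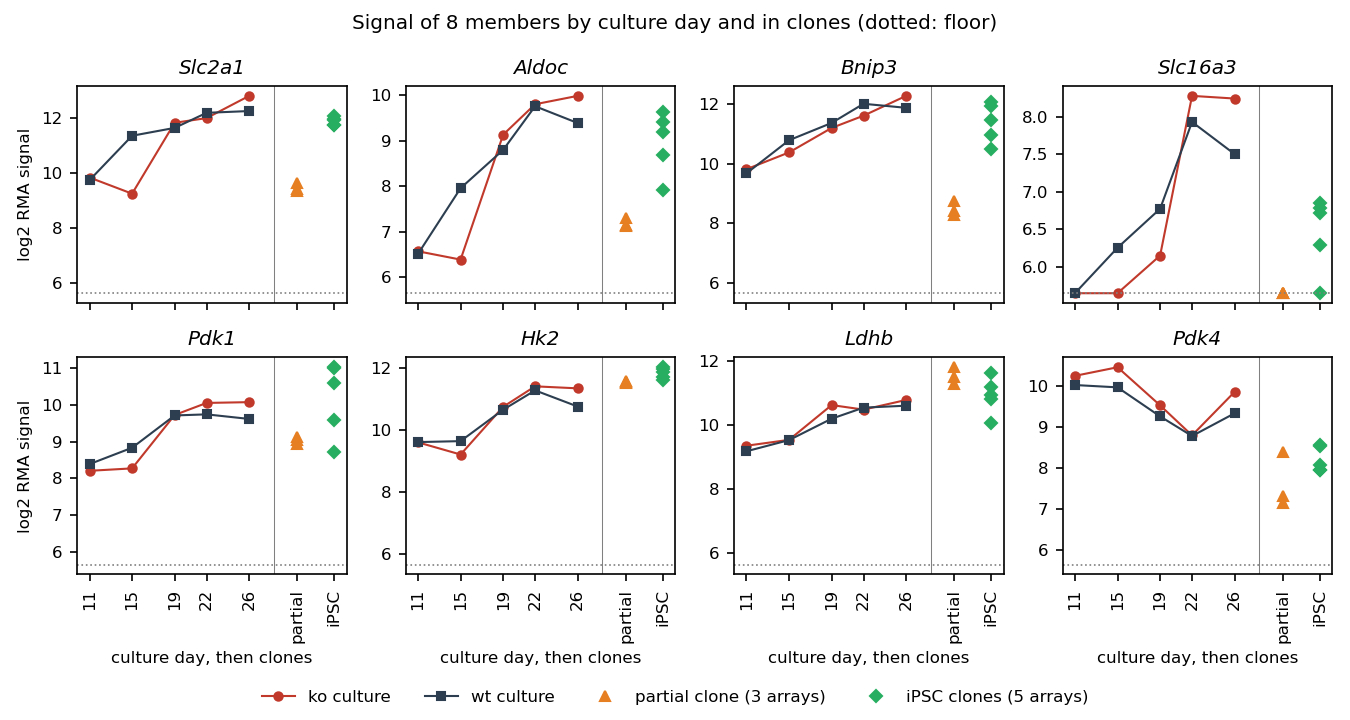
Log2 signal of 8 members on each array, by culture day for ko and wt cultures and beside them in the partial clone and in iPSC, with the floor at 5.64 as a dotted line. Slc2a1 climbs to 12.82 in ko and 12.27 in wt on day 26, is 9.36 to 9.66 in the partial clone and 11.75 to 12.07 in iPSC.

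Genes outside the members were read from lists of metabolic and hypoxia response genes, whose counts stand beside the 18% of all genes that rose and the 18.7% that fell. Of 19 tested hypoxia response genes, 10 rose and 2 fell, led by Egln3 (0.28 ± 0.053 per day), an oxygen-sensing prolyl hydroxylase, and Ankrd37 (0.23 ± 0.044). The falls were Hif1a (-0.051 ± 0.017), which encodes the factor's oxygen-regulated subunit, and Vhl (-0.030 ± 0.0090), whose protein marks that subunit for degradation. Of 27 other glycolysis, gluconeogenesis and pyruvate genes, 1 rose (Pdhx, 0.032) and 5 fell, with Fbp2 (-0.22) and Pcx (-0.093) the largest. Both act in gluconeogenesis, as fructose bisphosphatase and pyruvate carboxylase. Of 17 tricarboxylic acid cycle genes 1 rose (Idh3a, 0.054). The respiratory chain list, here and below, also holds the regulators Ppargc1a, Ppargc1b and Tfam and the uncoupling protein gene Ucp2. Of its 22 tested genes 5 rose and 1 fell. The largest rises were those of Ppargc1b (0.075), which encodes no subunit of the chain, and Cycs (0.051), and the fall was Cox6a2 (-0.028). Of 7 pentose phosphate genes 0 rose and 2 fell (H6pd, -0.042, and Pgls, -0.031). The hypoxia list had a median slope of 0.0414 and the other lists with metabolic genes between -0.012 and 0.0145.

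Loss of Tcf3 was not followed by a called difference of these genes in culture. With day as a block, 0 of 27 members and 0 of 13428 genes (0%) passed in limma, and 1 member and 452 genes had an unadjusted p under 0.05. The median member difference, ko minus wt, was -0.00807. The slopes of the genotypes also gave 0 calls (0%), with 0 members and 208 genes at an unadjusted p under 0.05. The slope was more positive in ko for 23 of 27 members (median difference 0.0166 per day, against 0.000175 over all genes tested). This lean was not particular to the members. It was also seen in 17 of 17 cycle genes and 19 of 22 genes of the respiratory chain list. In the other glycolysis list 18 of 27 genes leaned so, and 11 of 19 hypoxia response genes. Single days looked different, without replicates. On day 15, 2 of 28 members were at least 2-fold lower in ko, Slc2a1 (9.26 in ko against 11.37 in wt, 4.31-fold) and Aldoc (6.38 in ko against 7.96 in wt, 2.97-fold), while 0.905% of genes were lower and 0.0551% higher by as much. Both other Slc2a1 probe sets showed it, with 8.89 in ko against 11.25 in wt and 8.01 in ko against 10.32 in wt. On day 26, 26 of 28 members were higher in ko (median 0.185), none by 2-fold, while of 12709 genes 57.6% were higher in ko (median 0.0382), 1.16% were at least 2-fold higher and 2.57% lower. On that day the mean of the 6 trophoblast markers was 8.43 in ko and 6.42 in wt and that of the pluripotency markers 9.93 in ko and 8.55 in wt, beside the neuron values above, and their part in the day 26 differences was not tested. These are differences between 2 arrays each.

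Clones and late cultures were compared in 1 fit of all 18 arrays. In iPSC, 8 of 28 members were higher and 11 lower than in late cultures, and 9 did not pass. Of all 13824 genes tested 68.6% passed (39.6% higher, 29.1% lower), so the share of members was near the background. The member median was -0.14 and that of all genes 0.0883. What follows therefore describes which genes moved and in which direction. The comparisons of iPSC and of the partial clone share the late culture arrays. Genotype was not balanced, since 4 of 5 iPSC arrays were ko. Nor was the factor set, since late cultures and the partial clone were OCK only and the iPSC group held OCK and OSK samples. The part of the factor set in these differences was not tested.

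Sugar entry differed in its transporter genes. Slc2a3, which encodes GLUT3, a high-affinity glucose transporter of neurons and early embryos, read 7.97 and 7.25 in the OCK ko clones, 7.01 and 6.68 in the OSK ko clones and 7.23 in the OSK wt sample, against the floor on all culture arrays. It was above the floor in iPSC alone of the groups, by the probe set used at least 2.99-fold higher than in late cultures (limma adjusted p = 1.88e-07). Its other probe set was nearer the floor in iPSC. That probe set read 6.81 and 5.67 in the OCK ko clones, 5.70 and 5.64 (the floor) in the OSK ko clones and 5.97 in the OSK wt sample. On all culture and partial clone arrays it was at the floor. Slc2a1 was 11.75 to 12.07 in iPSC and 12.01 to 12.82 in late cultures, and its difference of -0.43 ± 0.29 did not pass.

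Hk2 was higher by 0.64 ± 0.13 in iPSC and Hk1 lower (-0.64 ± 0.15), with adjusted p = 0.000251 and 0.000981. Pfkm (0.62 ± 0.15) and Pfkp (0.51 ± 0.16) were higher and Pfkl lower (-0.44 ± 0.17, adjusted p = 0.0286). The Pfkl call was lost without ko day 22 (adjusted p = 0.0602), ko day 26 (0.0832) or OCK ko clone 2 (0.0693), which read 9.15 where the other 4 iPSC arrays read 9.75 to 10.04. Both bifunctional enzyme genes were lower, Pfkfb3 with -1.79 ± 0.14 (6.0 to 6.44 in iPSC and 7.94 to 8.12 in late cultures) and Pfkfb4 with -1.16 ± 0.13. Aldoc was lower, with a difference of -0.77 ± 0.32 (adjusted p = 0.0445). This call was lost without either OCK ko clone (0.0845 without clone 1, 0.124 without clone 2) and when any of the late arrays but wt day 26 was left out.

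In the lower steps, Eno3 was higher by 1.43 ± 0.31 in iPSC (adjusted p = 0.000625) and Eno2 lower, with a fitted difference of -1.56 ± 0.12 that is a bound, since 4 of 5 iPSC arrays were at the floor. Eno3 read 7.73 and 8.46 in the OCK ko clones, 9.69 and 9.68 in the OSK ko clones and 9.66 in the OSK wt sample, against 7.36 to 7.82 in late cultures. Eno2 read 5.81 on the OSK wt array, the only iPSC array above the floor, against 6.82 to 7.60 in late cultures. The 8 skeletal and heart muscle markers averaged 6.53 to 6.92 in iPSC and 5.93 to 6.10 in late cultures, with 4 to 6 of them above the floor on iPSC arrays and 2 to 4 on late culture arrays. Mylpf, a myosin light chain, read 10.69 to 12.04 in iPSC and 7.45 to 8.66 in late cultures, while Myod1 and Myog, the factors that define skeletal muscle, were at the floor on all of these arrays; the part of these markers in the Eno3 result was not tested. Tpi1 was lower, with a difference of -0.79 ± 0.11, and Pgk1, Pgam1 and Pkm did not pass, with differences between -0.12 and 0.019.

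At the lactate steps Ldha was lower, with a difference of -0.92 ± 0.13 in iPSC (11.64 to 12.51, against 13.04 to 13.20 in late cultures; adjusted p = 9.64e-06), with no overlap, and Ldhb did not pass (0.33 ± 0.22). Slc16a3 was lower, with a difference of -1.53 ± 0.23 (adjusted p = 1.49e-05), and 1 OCK ko clone was at the floor for it. Slc16a1 did not pass (-0.16 ± 0.090). On the mitochondrial side, Pdhb was higher by 0.92 ± 0.064, with 12.48 to 12.52 in iPSC and 11.46 to 11.76 in late cultures, and Dlat by 0.24 ± 0.096, a call that did not hold without either OSK ko clone (adjusted p = 0.0617 and 0.0721), without the OSK wt sample (0.0875) or without wt day 22 (0.102), wt day 26 (0.107) or ko day 26 (0.0697). The Dlat call was also lost with the mean of its probe sets (a difference of 0.11, limma adjusted p = 0.191) and with quantile normalization (0.172). Median centring (0.0652) and genotype as a term (0.0505) ended it too. Pdk4 (-0.98 ± 0.25) and Pdk2 (-0.93 ± 0.12) were lower, and Pdk1 did not pass (0.32 ± 0.35). Pgm2 was higher by 0.98 ± 0.16, and Bnip3 and Mpc1 did not pass. Under all alternatives run, 15 of the 19 calls held, all but Aldoc, Dlat, Pfkl and Slc16a3.

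**Figure D3:**
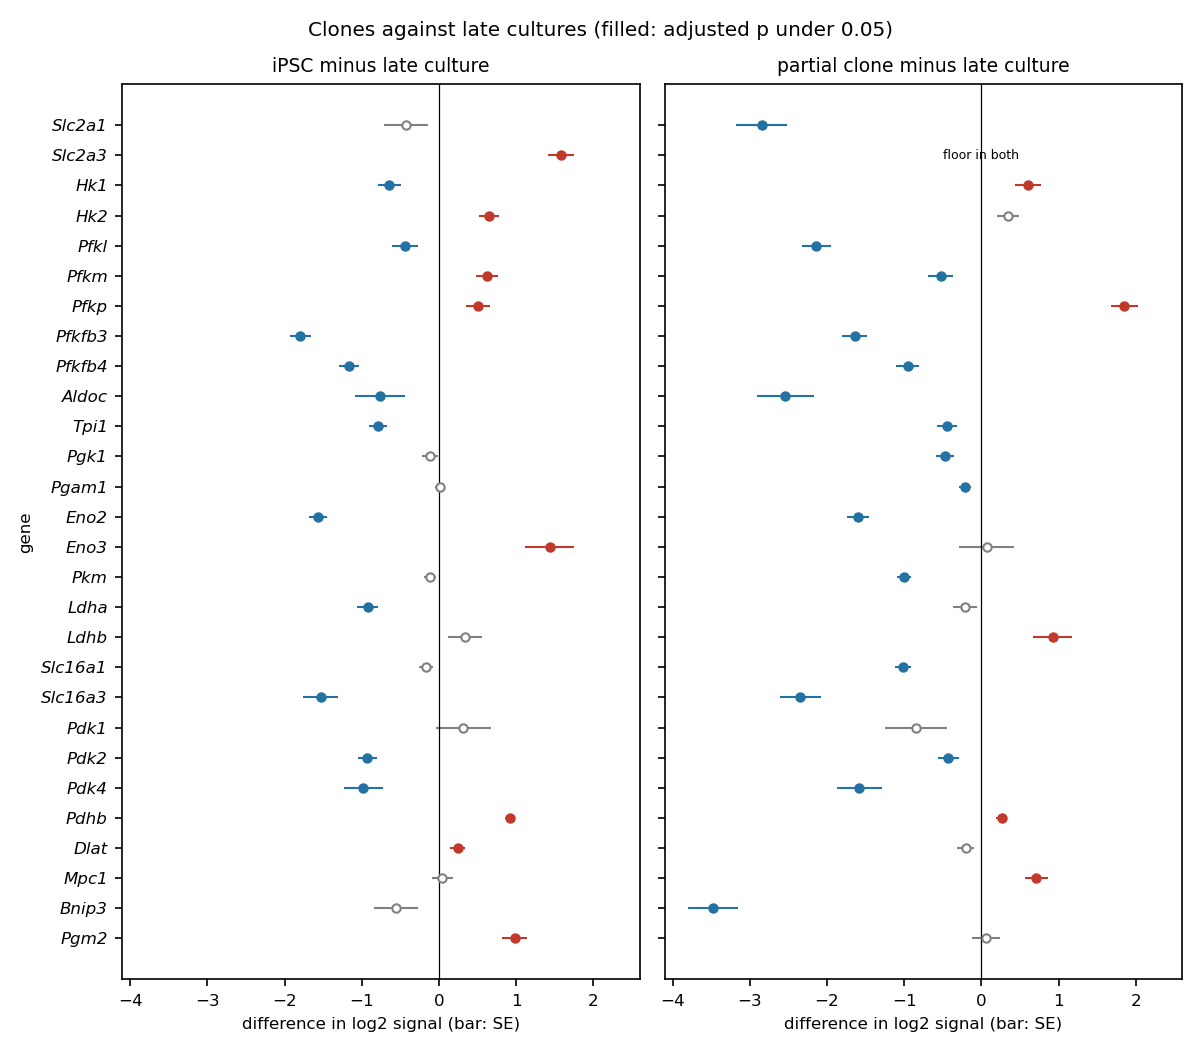
Differences in log2 signal with their SE for the 28 members, iPSC minus late culture and partial clone minus late culture, with filled points for adjusted p under 0.05. Bnip3 (-3.47), Slc2a1 (-2.85) and Aldoc (-2.54) are the lowest in the partial clone, and Slc2a3 (at least 1.58) is the highest in iPSC.

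Lists of genes around the members were counted in iPSC beside the 39.6% of all genes that were higher and the 29.1% that were lower. Of 22 respiratory chain genes 18 were higher than in late cultures and 0 lower, with Cox7a1 (3.23 ± 0.19) and Atp5c1 (1.55 ± 0.13) the largest, and the list median was 0.393. Of 17 cycle genes 6 were higher and 1 lower, with Idh2 (1.2) and Idh3g (0.88) the largest rises and Mdh1 (-0.16) the fall, in each direction a smaller share than over all genes. Of 29 other glycolysis and pyruvate genes 15 were higher and 2 lower, among them Ldhc, a lactate dehydrogenase of the germ line (1.37), and Pdk3 (1.27), and on the low side Bsg (-0.24), whose protein escorts monocarboxylate transporters, and G6pc3 (-0.22). Of 7 pentose phosphate genes 4 were higher and 2 lower, with Rpe (1.86) and Taldo1 (0.91) the largest rises and H6pd (-1.68) and Rpia (-0.99) the falls. Of 19 hypoxia response genes 12 were lower and 1 higher (Kdm3a, 0.37), with Adm (-3.79) and P4ha2 (-2.13) the lowest.

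The partial clone read far lower than late cultures in several of the members that had risen over time. There 16 of 27 members were lower, 5 higher and 6 did not pass, where 49.4% of 13481 genes passed (25.3% higher, 24.1% lower). The member median was -0.474 and that of all genes 0.0316. The 3 arrays came from 1 clone, so they give no spread between clones, and all are labelled wt while late cultures held both genotypes. Of the 21 calls, 12 held under all alternatives run.

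Bnip3 read 8.40 and 8.26 with the Tcf3 siRNAs and 8.74 with control siRNA, against 11.61 to 12.27 in late cultures, and was lower, with a difference of -3.47 ± 0.32 (11.1-fold; adjusted p = 1.93e-07). Slc2a1 read 9.42 and 9.36 with the Tcf3 siRNAs and 9.66 with control siRNA, and was lower, with a difference of -2.85 ± 0.33 (7.19-fold; adjusted p = 2.43e-06). Its partial clone level lay within the range of days 11 and 15 (9.26 to 11.37). Aldoc (-2.54 ± 0.37) and Pfkl (-2.14 ± 0.19) were also lower. Slc16a3 and Eno2 were at the floor on all 3 arrays, at least 5.08-fold and at least 3.03-fold lower than in late cultures.

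Smaller falls were called for Pfkfb3 (-1.64), Pdk4 (-1.58), Slc16a1 (-1.02), Pkm (-1.0), Pfkfb4 (-0.95), Pfkm (-0.53), Pgk1 (-0.47), Tpi1 (-0.44), Pdk2 (-0.43) and Pgam1 (-0.21). The Pgam1 call was lost without wt day 22 (adjusted p = 0.0641), ko day 26 (0.0529), the control siRNA array (0.0635) or siRNA A (0.0757). The Pfkm and Pdk2 calls were lost without siRNA B (0.0598 and 0.0993). Hk2, Eno3, Ldha, Pdk1, Dlat and Pgm2 did not pass. The 5 higher members were Pfkp (1.85 ± 0.18), Ldhb (0.93 ± 0.25), Mpc1 (0.71 ± 0.15), Hk1 (0.60 ± 0.17) and Pdhb (0.26 ± 0.073). Pfkp read 12.28 and 12.10 with the Tcf3 siRNAs and 12.66 with control siRNA, against 10.23 to 10.72 in late cultures. Its 2 other probe sets disagreed with each other: 1 read 5.68 to 6.39 in the partial clone and 7.33 to 8.06 in late cultures, the other 6.38 to 6.99 in the partial clone and 5.64 to 6.23 in late cultures. With the mean of the probe sets the Pfkp difference was 0.31 (adjusted p = 0.173), so the call was made with 1 probe set only, and the Hk1 call was lost too (0.0744). With all culture days in place of late ones, the calls of Aldoc (adjusted p = 0.171), Slc16a3 (0.0858), Tpi1 (0.694), Pgk1 (0.637) and Pgam1 (0.824) were lost.

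Among the other genes in the partial clone, 9 of 29 glycolysis and pyruvate genes were higher and 6 lower than in late cultures, with Eno4 (at least 4.48) and Tigar (1.29) the highest and Pcx (-1.93) and Bsg (-1.03) the lowest. Eno4, an enolase of sperm, read 10.50 and 10.20 with the Tcf3 siRNAs and 9.68 with control siRNA, and was at the floor on all 10 culture arrays. Of 19 hypoxia response genes 11 were lower and 1 higher (Egln2, 0.71), with Adm (-2.93) and P4ha2 (-2.79) the lowest. Of 17 cycle genes 8 were higher and 1 lower, and of 22 respiratory chain genes 8 were higher and 0 lower. Over all genes 25.3% were higher and 24.1% lower, so fewer of the respiratory chain genes than of all genes passed in either direction together.

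Set against the partial clone directly, 16 of 28 members were higher in iPSC, 7 lower and 5 did not pass, with 62.2% of 13571 genes past the threshold (35.8% higher, 26.3% lower). The member median was 0.521 and that of all genes 0.0548. Bnip3 (2.92 ± 0.31), Slc2a1 (2.42 ± 0.31), Aldoc (1.77 ± 0.35) and Pfkl (1.70 ± 0.18) led the higher members, and Slc2a3 was at least 2.99-fold higher by the probe set used. Eno3 (1.36), Pdk1 (1.17), Pfkm (1.15), Pgm2 (0.92), Pkm (0.89), Slc16a1 (0.85), Pdhb (0.65), Dlat (0.44), Pgk1 (0.36) and Pgam1 (0.23) were higher too. Slc16a3 was higher by a fitted 0.81, with all 3 partial clone arrays and 1 iPSC array at the floor. Pfkp (-1.35), Hk1 (-1.24), Ldha (-0.71), Mpc1 (-0.67), Ldhb (-0.59), Pdk2 (-0.50) and Tpi1 (-0.35) were lower. The Ldhb call was lost without OCK ko clone 2 (adjusted p = 0.0769), without either OSK ko clone (0.0701 and 0.057) and without siRNA A (0.174) or B (0.0797), and the Tpi1 call without OCK ko clone 2 (0.0501), control siRNA (0.0527) or siRNA A (0.0879). With the mean of probe sets the differences of Pfkp (0.15) and Pdhb (-0.10) turned direction and did not pass, and the calls of Dlat (0.014, adjusted p = 0.90), Tpi1 (0.0744) and Ldhb (0.114) were lost. The Pgam1 call was lost with quantile normalization (0.119) and median centring (0.0661). Under all alternatives run, 17 of the 23 calls held. No difference passed for Hk2, Pfkfb3, Pfkfb4, Eno2 and Pdk4.

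Isoform use was followed as the difference of 2 isoform genes within an array, which shows unequal change and not which isoform is more abundant. Of 13 listed pairs 9 could be measured, and an exact two-sided permutation test was run for 3 contrasts, 27 tests in all. None passed after adjustment. The smallest p that 5 against 4 arrays allow is 0.0159, and it came to 0.0612 after adjustment; 3 against 4 arrays allow 0.0571 and 5 against 3 allow 0.0357. The Hk2 minus Hk1 difference was 2.18 ± 0.27 in iPSC (SD, n = 5), 0.64 ± 0.18 in the partial clone (n = 3) and 0.90 ± 0.25 in late cultures (n = 4). It was larger in iPSC than in late cultures by 1.29, at that smallest p (exact permutation test, adjusted p = 0.0612).

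For lactate dehydrogenase, Ldhb minus Ldha was -1.25 ± 0.49 in iPSC and -1.37 ± 0.19 in the partial clone, against -2.51 ± 0.15 in late cultures (SD, n = 5, 3 and 4; exact permutation test, adjusted p = 0.0612 and 0.0857). Pfkm minus Pfkl was -0.47 ± 0.19 in iPSC and 0.079 ± 0.12 in the partial clone, against -1.53 ± 0.14 in late cultures. Pfkp minus Pfkl was 1.22 ± 0.29 in iPSC and 4.27 ± 0.20 in the partial clone, against 0.27 ± 0.12 in late cultures, with the limit on the Pfkp probe set given above. For transport, Slc2a3 minus Slc2a1 differed by 2.01 and Slc16a3 minus Slc16a1 by -1.37 in iPSC relative to late cultures, and values at the floor limit both. Pfkfb4 minus Pfkfb3 differed by 0.63 (exact permutation test, adjusted p = 0.0612), Pdk2 minus Pdk1 by -1.25 (0.0804) and Pdk4 minus Pdk1 by -1.30 (0.147). For both Pdk pairs the iPSC and late culture values overlapped. Eno3 minus Eno2, a pair added after the data had been seen because Eno1 was not measured, was 3.37 ± 0.88 in iPSC and 2.04 ± 0.14 in the partial clone, against 0.37 ± 0.51 in late cultures, where Eno2 at the floor makes the clone values lower bounds.

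**Figure D4:**
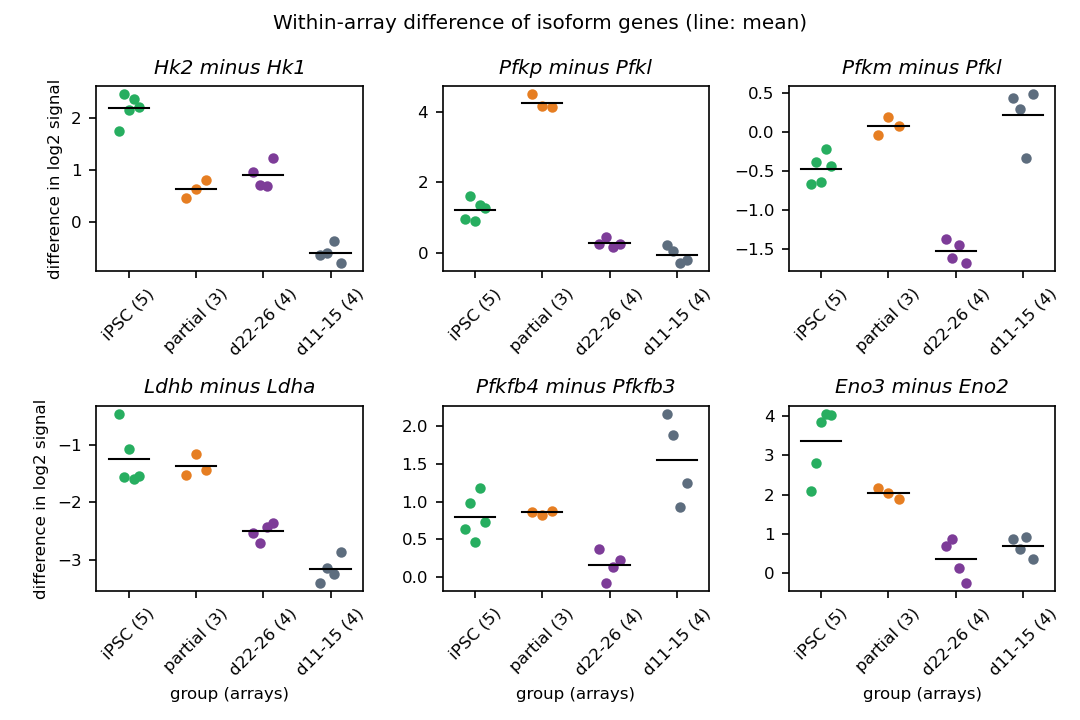
Within-array difference in log2 signal of pairs of isoform genes, 1 point per array and a line at the mean, by group. Hk2 minus Hk1 is highest in iPSC (mean 2.18), and Pfkp minus Pfkl is highest in the partial clone (mean 4.27).

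The OCK and OSK ko iPSC clones were compared for the factor set, with 2 clones each. In them, 7 of 27 members were lower in OCK than in OSK and 0 higher, where 10.7% of 12905 genes passed (5.8% lower, 4.87% higher). Pdk1 read 8.72 and 9.60 in OCK ko, against 11.03 and 11.02 in OSK ko, and was lower, with a difference of -1.87 ± 0.27 (adjusted p = 0.0138). Eno3 (-1.59 ± 0.23), Bnip3 (-1.26 ± 0.17), Aldoc (-1.22 ± 0.25), Slc16a3 (-0.85 ± 0.20), Pfkm (-0.75 ± 0.15) and Pfkp (-0.59 ± 0.095) were the others. None of the 7 calls held under all alternatives run: without OSK ko clone 1 or 2, 0 members passed (8 and 18 genes in all), without OCK ko clone 1, 12 were lower and 1 higher (2958 genes), and without OCK ko clone 2, 8 were lower and 6 higher (3614 genes). The OCK ko clones themselves lay apart, with Ldhb at 11.65 and 10.08 and Hk1 at 9.98 and 9.17.

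Knockout and knockdown left the members without a call in clones as well. In OSK iPSC, ko minus wt, 0 of 28 members passed, against 0.687% of 12670 genes (0.3% higher, 0.387% lower). An unadjusted p under 0.05 was seen for 4 members and for 1623 of the 12670 genes, a similar share. Only 1 wt array was compared, and it is assumed to vary like the groups with 2. After Tcf3 siRNA in the partial clone 0 of 25 tested members passed, against 0.111% of 12636 genes. Here 3 members and 1602 of the 12636 genes had an unadjusted p under 0.05, again a similar share. The largest siRNA difference was in Pdk4, a kinase that spares glucose in fasting, which read 7.14 and 7.32 with siRNAs A and B, against 8.39 with control siRNA. Both siRNA arrays lay below the control, but the difference of -1.16 ± 0.24 did not pass (adjusted p = 0.158).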

How the data were processed

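The 18 arrays, all of mouse cells, were grouped by their sample labels. The deposited log2 values were made by the authors with RMA, per the submitters' processing notes; the sources used here give no version or settings. Between 44.9% and 46.6% of the values of an array were at the floor of 50. The platform annotation gave 31076 of 40508 probe sets 1 gene, 636 several and 8796 none, and 17903 genes were read. Array medians were 5.85 to 5.94, and an array had 12102 to 12499 genes above the floor. The number of arrays limits the precision.

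limma 3.58.1 (R 4.3.3) tested log2 values, with the prior variance taken from genes that no array of the fit had at the floor, at least that variance for floored genes, and no test of genes floored on all compared arrays. Permutation tests used scipy. The code was tested on simulated data. Alternatives changed scaling, probe set choice, variance prior, groups fitted and arrays left out. All members were named, and of each other list up to 2 rises and 2 falls past the threshold. The members and lists were chosen with earlier results of these data known. Same-numbered OCK and OSK ko clones did not deviate together (r = -0.171 over 10284 genes), so they share only a number. Days pair ko and wt cultures by their labels.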

Additional observations from a re-analysis of the deposited data

Results flagged for a closer look

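Eno2 in the OSK wt iPSC sample read 5.81, while the other 4 iPSC arrays were at the floor of 5.64. The other arrays are tied at a limit, so any value above the floor would have been marked, however small its distance from it. It was 1 of 55 groups of 4 or 5 arrays checked, and chance marks about 1 in 20.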

How the results depend on the processing

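Counts are of genes past the limma threshold. For the change per day, members lower were 2 with median centring and 0 with the plain limma prior or a line through day means; members higher were 7 with that line, and all genes 424 with it and 3171 with the plain prior. A second form of the line, counting a mean as floored only if both arrays are, gave 5 members higher, 0 lower and 351 genes; it was the form first run and was replaced after its count had been seen, so both are given. With the mean of probe sets, members higher were 3 (partial clone minus late culture) and members lower 4 (iPSC minus partial clone). For OSK iPSC ko minus wt, all genes were 28 when floored genes were left out and 0 when only the 5 iPSC arrays were fitted, and 1 member was lower with the plain prior. For OCK minus OSK ko iPSC, fitting 5 iPSC arrays gave 0 members and 294 genes and the plain prior 0 members and 528 genes; median centring gave 1 member higher and moved the share of higher calls to 57.5%, from 45.7%. The replicate block by clone number gave 0 members and 142 genes, and the crossed pairing 0 members and 2 genes. For siTcf3 minus siCtrl, all genes were 8 with the mean of probe sets or median centring, 0 above the floor, 252 with the plain prior and 412 in the 3-array fit, with 1 member lower. With all culture days in place of late culture, 5 isoform pairs passed for iPSC and 2 for the partial clone. Directions turned for Pfkl (0.44) and Aldoc (0.54) in iPSC and Pgam1 (0.047) in the partial clone with all culture days; for Pfkp (0.15) and Pdhb (-0.10), iPSC minus partial clone, with the mean of probe sets; and for Ldhb, OCK minus OSK, 0.75 without OCK ko clone 2, while it was -0.82 without clone 1. The cause was not tested.

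Leaving out 1 array or day gave ranges. Per day these were 0 to 5151 genes, 0 to 16 members higher and 0 to 2 lower; ko minus wt cultures 0 to 1 gene; iPSC minus late culture 9046 to 9463 genes, 7 to 9 higher and 9 to 12 lower; partial clone minus late culture 5452 to 6889, 5 to 6 and 14 to 16; iPSC minus partial clone 7844 to 8483, 16 to 17 and 5 to 7; OCK minus OSK 8 to 3614, 0 to 6 and 0 to 12; OSK ko minus wt 0 to 0 genes; siTcf3 minus siCtrl 0 to 1.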

Other observations

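Myc and Mycn, factors known to act on glycolysis genes, are given as values. The sources used here do not say whether their probes also detect the introduced copies. The Mycn probe set read 13.73 to 14.49 on the culture arrays and 14.44 to 14.45 in the partial clone, and in iPSC 8.76 and 11.87 (OCK ko clones 1 and 2), 7.0 and 8.52 (OSK ko) and 7.78 (OSK wt). Myc read 9.08 to 9.66 on the culture arrays of days 11 and 15 and 10.57 to 11.08 on those of days 19, 22 and 26, and 10.02 to 10.17 in the partial clone. In iPSC it was at the floor in OCK ko clone 1 and read 8.09 in clone 2, 7.88 and 7.82 in the OSK ko clones and 7.71 in the OSK wt sample.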
